A study of Mus musculus with 4 samples.

Results

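*Gdpd3* and 5 related genes of lipid breakdown, *Gdpd1*, *Gde1*, *Gdpd2*, *Gdpd5* and *Napepld*, were measured in follicular helper CD4+ T (TFH) cells that lack *Rictor*, the subunit that defines mTOR complex 2 (mTORC2). The 6 genes were taken by name from 18193 genes on the array and are read by 7 of 45037 probe sets. *Gdpd3* was chosen by its intensity in Rictor-null against WT TFH cells and the other 5 genes by their kinship or shared chemistry with it. The values of all 6 in that comparison are therefore a description, and no p-value is given for them. Every probe set annotated with 1 of these symbols alone was read, and where a gene had several, the brightest over the 4 arrays stands for it. The TFH cells were sorted from the spleen at day 8 after infection with the Armstrong strain of lymphocytic choriomeningitis virus (LCMV). Rictor-null mice carry Rictor fl/fl alleles and a Cd4-Cre transgene, which deletes the gene in T cells from their development in the thymus on. WT mice are Rictor fl/fl littermates without Cre, so that an effect of Cre itself and of the deletion cannot be told apart. According to the methods the infected mice were 6 to 10 weeks old. There are 2 arrays per genotype, each from a separate pool. Pools hold at least 5 mice in the series description, but a figure legend gives 6 Rictor-null and 4 WT mice per group. The p-values below rest on the spread between those pools, which limma estimates for each gene in part from the other genes.

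The glycerophosphodiester phosphodiesterases (GDPD or GDE enzymes) cut a phosphodiester bond next to glycerol, and members differ in which lipid or headgroup they accept. GDPD3 (GDE7) and GDPD1 (GDE4) are lysophospholipases D: they remove the headgroup of a lysophospholipid and leave lysophosphatidic acid (LPA), a lipid mediator sensed by G protein-coupled receptors. GDE1 acts on glycerophosphoinositol and on glycerophospho-N-acylethanolamines, GDPD2 (GDE3) on glycerophosphoinositol, and GDPD5 (GDE2) on glycerophosphocholine, and GDPD2 and GDPD5 also cut glycosylphosphatidylinositol anchors at the cell surface. NAPE-PLD, encoded by *Napepld*, is no relative by fold but releases N-acylethanolamines from a membrane phospholipid in 1 step, a product that GDE1 and the lysophospholipases D reach by other routes.

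*Gdpd3* lies on chromosome 7 (bases 126766414 to 126775645, GRCm38.p6). It starts 597 bases after the end of *Mapk3* and ends 1317 bases before the start of *Ypel3*. *Gde1* and *Gdpd5* lie elsewhere on the same chromosome, *Gdpd1* on chromosome 11, *Gdpd2* on the X chromosome and *Napepld* on chromosome 5. RefSeq promoter windows (250 bases before to 50 bases after a start, GRCm38.p6) were matched for 5 of the 6 genes. The window of *Gdpd3*, the gene whose level differed, is shown beside that of *Gde1*, a member at a steady and clearly measured level, each 5′ to 3′ on the gene's strand with CpG dinucleotides in capitals.

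*Gdpd3*, chr7:126766164-126766463, plus strand: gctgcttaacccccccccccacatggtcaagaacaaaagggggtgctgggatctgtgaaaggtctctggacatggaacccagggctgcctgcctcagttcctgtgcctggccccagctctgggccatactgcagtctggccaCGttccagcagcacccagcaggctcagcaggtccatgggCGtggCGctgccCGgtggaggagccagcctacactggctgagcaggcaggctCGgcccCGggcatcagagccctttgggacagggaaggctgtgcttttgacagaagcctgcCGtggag
*Gde1*, chr7:118705689-118705988, minus strand: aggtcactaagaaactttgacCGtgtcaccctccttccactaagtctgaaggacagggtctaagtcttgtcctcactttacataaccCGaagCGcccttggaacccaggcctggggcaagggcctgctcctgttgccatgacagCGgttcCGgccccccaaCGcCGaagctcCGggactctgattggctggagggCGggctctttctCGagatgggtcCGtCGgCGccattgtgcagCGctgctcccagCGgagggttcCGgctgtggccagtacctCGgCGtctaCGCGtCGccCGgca

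The *Gdpd3* window holds 7 CpG dinucleotides and that of *Gde1* 22, with 25 in *Gdpd1*, 28 in *Napepld*, and 2 and 9 in the 2 windows of *Gdpd2*. The median over 32851 windows is 7. The *Gdpd3* window is rich in G and C at 64.3%, so that its ratio of observed to expected CpG is 0.226, above that of 32.5% of all windows, against 0.757 for *Gde1*, above that of 75.5%. On both strands, the *Gdpd3* window held no match to TATAAA (found in 13.6% of all windows), GGGCGG (35.7%), CAGGTG (20.2%), the forkhead motif GTAAACA (3.65%) or the T-box motif TCACACC (3.98%), which says only that these letters are not in this window.

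*Gdpd3* was close to the level of silent genes in WT TFH cells and clearly measured in Rictor-null TFH cells. Its probe set intensity, on a linear scale, was 585 and 556 on the Rictor-null arrays, against 20.03 and 25.6 on the WT arrays. The groups did not overlap, and the 2 arrays of each group lay close to each other. The mean was 571 ± 20.5 in Rictor-null and 22.8 ± 3.90 in WT TFH cells (SD, n = 2 each), a ratio of 25.03. On the log2(intensity + 16) scale, which shrinks the change of dim genes, the difference was 3.92 (standard error 0.08, 95% interval 3.75 to 4.10 from limma), the largest of all genes measured. In bulk samples, more cells of a type and more RNA per cell cannot be told apart.

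How far WT TFH cells were from no *Gdpd3* message at all was read from 44 probe sets of olfactory receptor genes, which T cells are not known to transcribe. Their 95th percentile was 16.8 to 17.9 on the Rictor-null arrays and 18.8 to 20.1 on the WT arrays, and their highest value was 23.8 and 20.5 on the Rictor-null arrays and 21.3 and 25.3 on the WT arrays. *Gdpd3* was above the 95th percentile on both arrays of each group, on the WT arrays at 20.03 against 18.8 and 25.6 against 20.1. It was above the highest value on both Rictor-null arrays, and on 1 of 2 WT arrays, there by a small margin (25.6 against 25.3). The size of the fold change therefore rests on a WT level that is hard to tell from background. *Gdpd3* has no other probe set on the array under its name alone, so that no second measurement stands beside it.

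**Figure D1:**
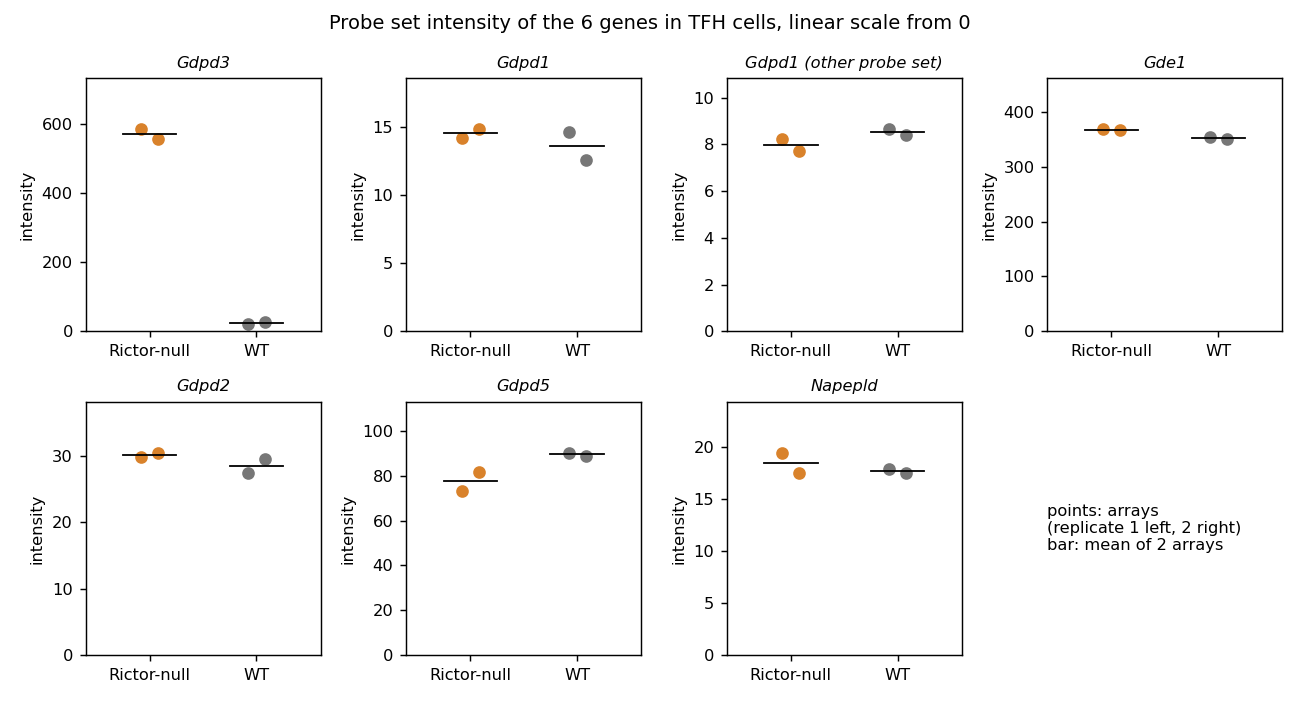
Probe set intensity (y axis, linear, from 0) of the 6 genes in Rictor-null (orange, left) and WT (grey, right) TFH cells, 1 panel per probe set with its own scale. Points are arrays and bars the mean of 2 arrays. *Gdpd3* is at 585 and 556 in Rictor-null, against 20.03 and 25.6 in WT. The means of *Gdpd5*, which differ most among the other genes on the log2 scale, are 77.5 and 89.5.

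*Gdpd1*, the other lysophospholipase D of the family, did not share this difference. Its brighter probe set was at 14.2 and 14.9 in Rictor-null and 14.7 and 12.6 in WT TFH cells, below the 95th percentile of the olfactory receptor probe sets on all 4 arrays. The groups overlapped. The log2 fold change was 0.05 (95% interval -0.08 to 0.17 from limma). Its second probe set was dimmer still, at 8.22 and 7.71 in Rictor-null and 8.66 and 8.40 in WT TFH cells, with a log2 fold change of -0.03. At these levels a small change in *Gdpd1* would not be seen.

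*Gde1* was well above background and steady. Its intensity was 369 and 367 in Rictor-null and 354 and 351 in WT TFH cells. The arrays of the groups did not overlap, but the ratio was 1.04 and the log2 fold change 0.06 (95% interval -0.06 to 0.18 from limma). For this well-measured gene the interval is narrow enough to leave out a difference near that of *Gdpd3*.

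*Gdpd2*, known from bone-forming cells, was dim in both groups. It was at 29.8 and 30.5 in Rictor-null and 27.4 and 29.6 in WT TFH cells, above every olfactory receptor probe set on all 4 arrays. The groups did not overlap but differed by less than their interval, with a log2 fold change of 0.05 (95% interval -0.11 to 0.22 from limma).

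*Gdpd5* was the 1 gene of the 6 with a lower mean in Rictor-null TFH cells. Its intensity was 73.3 and 81.6 in Rictor-null, against 90.3 and 88.8 in WT TFH cells. The groups did not overlap, and the Rictor-null arrays differed from each other by about as much as the nearer of them from WT. The log2 fold change was -0.18 (standard error 0.08, 95% interval -0.35 to 0.00041 from limma).

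*Napepld* was at 19.4 and 17.5 in Rictor-null and 17.9 and 17.5 in WT TFH cells. The groups overlapped, and the gene lay above the 95th percentile of the olfactory receptor probe sets on 1 of 4 arrays. Its log2 fold change was 0.03 (95% interval -0.10 to 0.17 from limma).

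In the fit over all genes, limma called 12.5% higher and 7.19% lower (adjusted p under 0.05). Of the 6 genes, *Gdpd3*, chosen for its difference, was the 1 among them. The arrays of the groups did not overlap for 3 of the 6 genes with the higher mean in Rictor-null and for 1 with the lower, against 30.6% and 24.9% of all genes (55.5% in either direction). Nothing is read from these counts, since the genes were chosen with this comparison known. Of the 6, 4 averaged at or above 20.2, the median of the probe sets' means, and *Gdpd1* and *Napepld* fell below it.

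**Figure D2:**
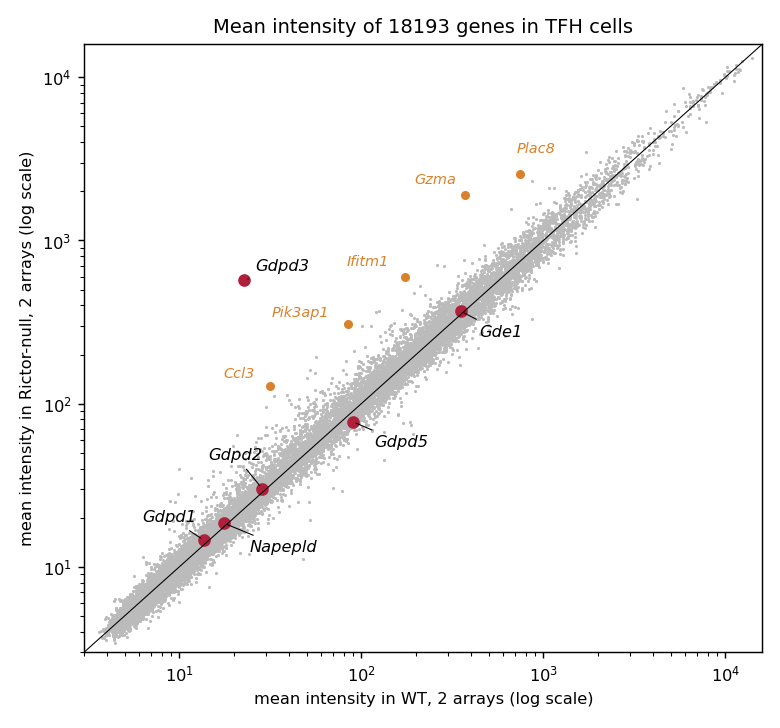
Mean intensity in Rictor-null (y axis) against WT TFH cells (x axis) of all genes measured, both on log scales, with the line of equal level. Red points are the 6 genes and orange points the 5 genes most like *Gdpd3* over the 4 arrays; *Gdpd3*, at 571 against 22.8, lies farthest above the line.

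The genes whose pattern over the 4 arrays was nearest to that of *Gdpd3* were found by the Euclidean distance of log2 values centred on each gene's mean. With 4 arrays in 2 groups this distance mainly ranks genes by the size of their rise. *Gzma*, which encodes the cytotoxic protease granzyme A, was nearest at a distance of 1.61, with 1998 and 1823 in Rictor-null, against 359 and 381 in WT TFH cells. *Plac8*, *Ifitm1*, *Pik3ap1*, which encodes the PI3K adaptor BCAP, and the chemokine gene *Ccl3* followed at distances of 2.17 to 2.32. Their ratios of linear means ran from 3.42 to 4.11, and that of *Gzma* was 5.16. *Gdpd3* had the largest log2 fold change of all genes, so the smaller rise of these genes follows from its choice. Unlike *Gdpd3*, *Gzma*, *Plac8*, *Ifitm1* and *Pik3ap1* were clearly measured in WT TFH cells, with means of 370.0, 745, 173 and 84.0, while *Ccl3* was dim there at 31.5.

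The genes beside *Gdpd3* on chromosome 7 differed in both directions. *Gdpd3* had the largest log2 fold change of all genes, so a smaller rise in its neighbours follows from its choice. Of the 5 measured genes on each side, 2 passed limma's threshold (adjusted p under 0.05) as higher and 2 as lower in Rictor-null TFH cells, against 12.5% and 7.19% of all genes tested, and the log2 fold changes ran from -0.29 to 0.53 over all 10. *Ypel3*, the next gene downstream, was at 935 and 913 in Rictor-null and 968 and 981 in WT TFH cells, a log2 fold change of -0.08 (adjusted p = 0.311 from limma). *Coro1a*, which encodes the actin regulator coronin 1A and is the nearest measured gene upstream, was at a log2 fold change of -0.12 (adjusted p = 0.0704 from limma). *Mapk3*, which lies between *Coro1a* and *Gdpd3*, was not analysed here.

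The 2 neighbours that rose were *Bola2*, of iron-sulphur protein assembly, and *Sgf29*, of a chromatin-binding co-activator complex. *Bola2* was at 931 and 852 in Rictor-null, against 596 and 631 in WT TFH cells, a log2 fold change of 0.53 (adjusted p = 3.83e-05 from limma), and *Sgf29* at 0.35 (adjusted p = 0.00225). *Aldoa*, encoding the glycolytic enzyme aldolase A, fell by 0.29 on the log2 scale, and *Ppp4c*, a phosphatase gene, by 0.22 (adjusted p = 0.000338 and 0.0159 from limma). *Sgf29* no longer passed without either WT array, nor *Ppp4c* without WT replicate 1 or Rictor-null replicate 1, with a gene's probe sets averaged or without the variance trend.

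**Figure D3:**
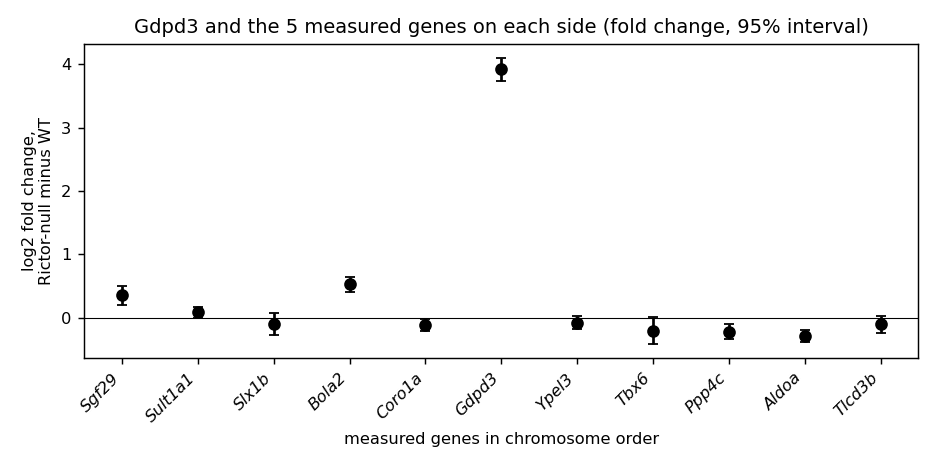
Log2 fold change, Rictor-null minus WT (y axis, log2 of intensity + 16), of *Gdpd3* and the 5 measured genes on each side of it in chromosome order (x axis, not to scale), with 95% intervals from limma. *Gdpd3* is at 3.92 and its neighbours lie between -0.29 and 0.53.

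The substrates and products of these enzymes are handled by further genes, of which 94 were listed in 6 groups and 87 were measured. By limma's test 7 of the 87 were higher and 4 lower in Rictor-null TFH cells, and the other 76 did not pass. That is 12.6% of the list, against 19.7% of all genes tested. On the log2 scale its median difference was 0.02, against 0.0068 over all genes, and 29 of the 87 averaged below 20.2, where a change would be hard to see. Genes of the list that passed differed by 0.24 to 0.51 on the log2 scale. That none of them rose as far as *Gdpd3* follows from its choice, since its log2 fold change was the largest of all genes.

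Among 7 other lysophospholipase D and glycerophosphodiesterase genes, *Gpcpd1* alone passed. It encodes GDE5, which cuts glycerophosphocholine, and was at 340 and 373 in Rictor-null, against 291 and 288 in WT TFH cells, which is 0.29 on the log2 scale (adjusted p = 0.0051 from limma). Its other 3 probe sets were at 0.07, 0.36 and -0.45, the last with WT arrays that did not agree (84.0 and 34.8). Phospholipase D genes were at -0.07 (*Pld2*), 0.01 (*Pld3*) and 0.07 (*Pld1*), and none of them passed.

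Of 13 receptors for lysophospholipids and endocannabinoids, *Lpar6* was the 1 that passed. It encodes a G protein-coupled receptor for LPA, the product of the lysophospholipases D. Its intensity was 496 and 542 in Rictor-null, against 410 and 409 in WT TFH cells, a log2 fold change of 0.33 (adjusted p = 0.00128 from limma). *Lpar1*, *Lpar2*, *Lpar3* and *Lpar4* lay between 5.51 and 19.1 on all 4 arrays, within the range of the olfactory receptor probe sets. *P2ry10* and *Gpr174*, receptors for lysophosphatidylserine, were at 164 and 173 and at 261 and 301 in Rictor-null, against 155 and 154 and against 290 and 278 in WT TFH cells, and neither passed.

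Of 19 genes that remove LPA or put an acyl chain back on lysophospholipids, 2 were higher and 1 was lower. *Agpat4* and *Agpat5* encode acyltransferases that turn LPA into phosphatidic acid. *Agpat5* was at 762 ± 46.0 in Rictor-null and 586 ± 8.25 in WT TFH cells, and *Agpat4* at 189 ± 16.1 against 137 ± 2.52 (SD, n = 2 each). On the log2 scale *Agpat5* rose by 0.37 and *Agpat4* by 0.42 (adjusted p = 0.000365 and 0.00129 from limma). *Mboat7*, whose enzyme adds arachidonate to lysophosphatidylinositol, fell by 0.28 on the log2 scale (adjusted p = 0.00861 from limma). The other probe sets of *Mboat7* were at 0.0073 and -0.03 and those of *Agpat5* at 0.09 and 0.0099, all of them much dimmer. The other probe set of *Agpat4* was at 0.36.

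Of 8 genes of N-acylethanolamine synthesis and breakdown, the pathway of *Napepld* and *Gde1*, 1 was higher and 1 lower. *Plaat3*, of a family of acyltransferases that can make the substrate of NAPE-PLD, was at 1340 ± 80.5 in Rictor-null and 1079 ± 25.2 in WT TFH cells (SD, n = 2 each). *Abhd4*, encoding a lipase of the route that bypasses NAPE-PLD, was at 383 ± 9.12 against 456 ± 28.0 (SD, n = 2 each). *Plaat3* thus rose by 0.31 on the log2 scale and *Abhd4* fell by 0.24 (adjusted p = 0.000866 and 0.0112 from limma). *Faah*, whose enzyme breaks N-acylethanolamines down, was at -0.07 and did not pass.

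None of the 22 phospholipases and lysophospholipases passed, with a median log2 fold change of 0.05. Of 18 genes that use choline, ethanolamine and glycerol phosphate, 2 were higher and 2 lower. *Etnk1*, encoding ethanolamine kinase, was at 429 and 432 in Rictor-null, against 622 and 616 in WT TFH cells, a log2 fold change of -0.51 (adjusted p = 2.5e-05 from limma). The choline transporter-like gene *Slc44a2* fell by 0.35 on the log2 scale, while *Selenoi*, encoding ethanolaminephosphotransferase, was at 0.37 and *Gpd1l*, a glycerol-3-phosphate dehydrogenase gene, at 0.30 (adjusted p = 0.00064, 0.00575 and 0.00326 from limma). Probe sets of 1 gene did not always move alike: the other 2 of *Slc44a2*, both clearly measured, were at -0.05 and -0.01, and the other 3 of *Selenoi* at 0.14, 0.20 and -0.10. Of the 11 genes named from these lists, 4 passed in the same direction when all probe sets of a gene were averaged, 2 (*Etnk1* and *Agpat5*) without WT replicate 1, and 4 without WT replicate 2. Over the whole list, 1 gene was higher and 1 lower without WT replicate 1, and 2 were higher and 2 lower without WT replicate 2.

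**Figure D4:**
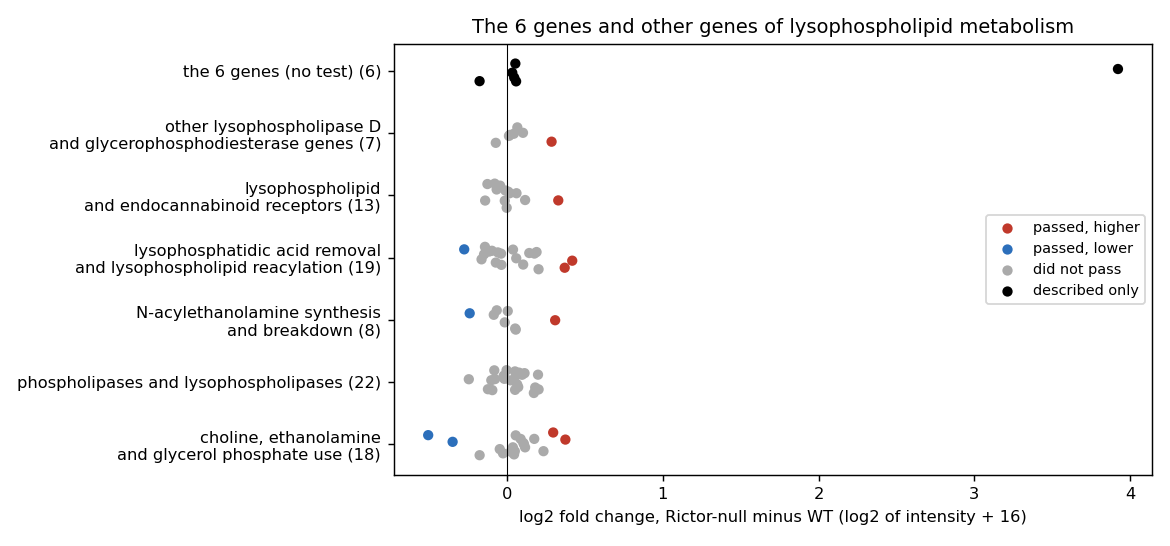
Log2 fold change, Rictor-null minus WT (x axis, log2 of intensity + 16), of the 6 genes (black, described without a test) and of 87 other genes in 6 lists, with the number of genes in brackets. Red points passed limma's threshold as higher and blue points as lower, and grey points did not pass; *Gdpd3*, at 3.92, lies apart from all others.

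Some properties of the samples touch these results. Of 6 defining T cell and TFH genes, all were clearly measured and 5 were lower in Rictor-null TFH cells. Over all genes tested, limma called 12.5% higher and 7.19% lower, which the marker calls of this paragraph are to be set against. The summed intensity of 8 myeloid genes was 509 to 549 on the Rictor-null and 323 to 359 on the WT arrays. *Itgax*, *Lyz2*, *Itgam* and *S100a8* were higher. *Csf1r*, *S100a9*, *Cd68* and *C1qa* did not pass, at log2 fold changes of 0.21, 0.13, 0.08 and -0.10. The sum of 4 plasma cell genes was 1313 to 1372 and 1128 to 1200, with *Jchain* and *Mzb1* higher and *Xbp1* lower. In 5 B cell genes the sum was 74.1 to 81.5 and 60.7 to 62.1, with *Cd79b* and *Pax5* higher. *Ms4a1*, *Cd79a* and *Cr2* did not pass, at log2 fold changes of -0.06, 0.05 and 0.02. In 3 CD8 and NK cell genes the sum was 158 to 173 and 119 to 126, with *Cd8b1* higher. Neither *Cd8a* (means of 24.5 in Rictor-null and 24.4 in WT) nor *Ncr1* (10.1 and 11.7) passed. The sum of 2 red cell precursor genes was 27.5 to 27.8 and 21.0 to 22.2, with *Alas2* higher. For 3 platelet genes it was 94.2 to 95.5 and 83.5 to 89.9, with none past the test. For 4 epithelial genes it was 65.9 to 67.6 and 75.1 to 76.2, with *Epcam* lower. Cell type markers below 20.2 in both groups were *Ms4a1*, *Cd79a*, *Pax5*, *Cr2*, *Sdc1*, *C1qa*, *Ncr1*, *Alas2*, *Klf1*, *Pf4*, *Krt8*, *Krt18* and *Cdh1*. *Pax5* and *Alas2*, named above as higher, thus rest on dim probe sets. The part of other cells in the level of *Gdpd3* was not tested. *Xist* was at 4940 and 5027 in Rictor-null and at 5943 and 5802 in WT TFH cells, with the Y-linked *Eif2s3y*, *Kdm5d* and *Uty* at or below 9.98 on all 4 arrays, the pattern of female mice in both groups.

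*Rictor* itself was read by 5 probe sets. The brightest was at 267 and 279 in Rictor-null, against 334 and 303 in WT TFH cells, a log2 fold change of -0.21 (adjusted p = 0.0366 from limma), and the other 4 lay between -0.03 and 0.11. The exons these probe sets lie in were not looked up, and only one inside the deleted stretch could check the label. The paper reports a check of its own: *Rictor* mRNA could not be detected in TFH cells of Rictor-null mice. It also reports that stimulation did not raise mTORC2 activity in their CD4+ T cells.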

How the data were processed

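RNA of sorted TFH cells was labelled with biotin and hybridised to 4 1-colour Affymetrix mouse arrays by a company. The deposited values are linear probe set intensities, for which the submitters' processing notes list the methods MAS5 and RMA without saying which step each made. The median intensity was 19.98 to 20.4 on the 4 arrays, as on arrays already scaled to each other, and the values were used as they stand. Genes were named only from the 34945 of 45037 probe sets to which the platform annotation gives a single symbol (932 carry several and 9160 carry none there). The brightest probe set stood for each of 18193 genes.

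Groups were compared on log2(intensity + 16) with limma 3.58.1 in R 4.3.3 (eBayes with a trend in mean signal, 2-sided) and Benjamini-Hochberg adjustment over all genes, with a threshold of 0.05. The methods' one-tailed t-test was an alternative, with the tail taken in the direction of each gene's own difference. At the same threshold this is more lenient than a 2-sided test. The number of arrays limits the precision.

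The 6 genes, the pathway and marker lists and the tests were chosen with earlier results of these data known. Named genes are the 6, *Rictor*, up to 4 per pathway list with the smallest p among those that passed, the 5 genes nearest to *Gdpd3*, and the 5 measured genes on each side of it. A few further list members are given as examples, picked with their values known. Alternatives were other pseudocounts, normalizations, filters, probe set rules, variance settings, a replicate block and leaving out each array.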

Additional observations from a re-analysis of the deposited data

How the results depend on the processing

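The log2 fold change of *Gdpd3* was 3.92. It was 4.60 with a pseudocount of 1, 4.65 by the ratio of linear means and 2.87 with a pseudocount of 64, which follows from the dim WT level that a pseudocount weighs down. Under median centring and quantile normalization it was 3.91, within the spread between replicates. With each array left out it ran from 3.819 to 4.025. With 2 arrays per group such a shift cannot exceed that spread for any gene, so nothing is read from it. Over all settings *Gdpd5* stayed below 0 (-0.24 to -0.11) and *Gde1* and *Gdpd2* above 0, while *Gdpd1* (-0.0055 to 0.10) and *Napepld* (-0.0073 to 0.07) crossed 0.

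Calls over all genes were 2283 higher and 1308 lower. With an array left out they ran from 930 to 2000 higher and from 457 to 1048 lower, lowest without a WT array (1005 and 457 without WT replicate 1, 930 and 494 without WT replicate 2). Averaging a gene's probe sets left 842 lower. The methods' t-test, with its tail in the direction of each gene's difference, called 2231 lower without adjustment. After Benjamini-Hochberg it called 3 higher and 3 lower. In the pathway lists, 7 higher and 4 lower became 4 and 2 on that average, 16 and 10 by the unadjusted t-test, 0 and 0 by that test after Benjamini-Hochberg (limma called 11), and 1 to 9 higher and 1 to 4 lower with an array left out. Of the 4 called neighbours of *Gdpd3*, the unadjusted t-test kept 3 (not *Ppp4c*) and that test after Benjamini-Hochberg kept 0. Fits with an array left out have fewer samples; for the other settings the cause was not tested.

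Replicate numbers did not pair the arrays: deviations of same-numbered arrays from their group means correlated at -0.033. With the replicate number as a block, 2366 genes were higher and 1382 lower, 8 and 4 in the pathway lists, and the *Gdpd3* log2 fold change was 3.92.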

Other observations

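*Gdpd3* was set against the genes that were as dim in WT TFH cells, with the cutoffs chosen after its values were seen. It was chosen for its rise in this same comparison, so its place at the top is not a finding. In 8182 genes both WT arrays were at or below 25.6, the brighter WT array of *Gdpd3*. Limma called 225 of these 8182 genes higher at an adjusted p under 0.05, against 2283 of all 18193 genes (12.5%). *Gdpd3* was the 1 of the dim genes with a mean of 100 or more in Rictor-null TFH cells. The next highest in Rictor-null was *Tppp3*, which encodes a tubulin-binding protein, at 64.6 ± 5.37 in Rictor-null and 20.6 ± 2.37 in WT TFH cells (SD, n = 2 each). *Ermn*, encoding a cytoskeletal protein known from oligodendrocytes, was at 55.0 ± 6.43 against 19.6 ± 0.581, and *Gpr160*, an orphan receptor gene, at 51.0 ± 4.50 against 20.7 ± 3.22 (SD, n = 2 each).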
